A study of Mus musculus with 3 samples.

Results

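The 10 genes described here make, trim and package the peptides that neurons and endocrine cells release from dense-core granules. They are Pcsk1, Pcsk2, Cpe, Pam, Pcsk1n, Scg5, Scg2, Chgb, Vgf and Resp18, and they were taken by symbol from the 31253 genes listed in each of 3 single-cell count matrices of the mouse arcuate nucleus. All 10 symbols were found, and all 10 genes had UMIs in the kept cells of every library. A UMI, or unique molecular identifier, marks 1 captured transcript molecule.

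A prohormone is cut in the granule by the convertases encoded by Pcsk1 and Pcsk2, its C-terminal basic residues are removed by carboxypeptidase E (Cpe), and peptides that end in glycine are amidated by Pam. Scg5 encodes 7B2, the chaperone of the Pcsk2 convertase, and Pcsk1n encodes proSAAS, an inhibitor of the Pcsk1 convertase. Scg2, Chgb and Vgf are granins, acidic granule proteins that are themselves cut into peptides, and Resp18 encodes a small protein of the endocrine secretory pathway. In the arcuate nucleus this machinery is best known from the Agrp and Pomc neurons, whose peptides raise and lower food intake.

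Several genes of this kind are induced through cyclic AMP, and the palindrome TGACGTCA is the consensus cyclic AMP response element (CRE). RefSeq promoter windows of build GRCm38.p6, from 250 bases before to 50 bases after a gene's start, were at hand for 8 of the 10 genes, all but Cpe and Vgf. The palindrome, which reads the same on both strands, was found in 3 of those 8 windows and in 588 of all 32851 windows (1.79%). The 30 bases around each of the 3 matches are shown 5′ to 3′ on the gene's own strand because a single 8-base word at nearly the same distance from the RefSeq start is what these windows share; capitals mark the palindrome.
Pcsk1: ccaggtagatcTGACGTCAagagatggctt
Scg2: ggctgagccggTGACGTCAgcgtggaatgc
Chgb: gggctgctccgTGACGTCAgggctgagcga
The Pcsk1 stretch lies on the plus strand at chr13:75089768-75089797, and its match covers bases 78 to 71 before the start. The Scg2 stretch lies on the minus strand at chr1:79440076-79440105, with the match at bases 68 to 61 before the start, and the Chgb stretch on the plus strand at chr2:132781559-132781588, with the match at bases 72 to 65. These distances are from the RefSeq start used for the window. In the GENCODE annotation Scg2 and Chgb start further upstream, so that both stretches lie inside the spans given for those genes, and only the Pcsk1 stretch lies before its span. The shorter forms TGACG or CGTCA, which the palindrome contains, occurred for 5 of the 8 genes and for 23.0% of all genes. They were in 20.8% of all windows. Among the other gene lists used here, the palindrome was in the windows of the precursor genes Cartpt and Sst and of Slc18a2, the vesicular monoamine transporter. These are matches of letters and do not show a bound site.

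On GRCm38, with GENCODE annotation, the 10 genes are protein-coding and lie on 6 chromosomes. Scg2 (chr1:79434669-79440120), Resp18 (chr1:75272199-75278415) and Pam (chr1:97795114-98095646) are on chromosome 1, all on the minus strand. Pcsk2 (chr2:143546156-143816285, plus), Chgb (chr2:132781278-132795079, plus) and Scg5 (chr2:113776362-113829121, minus) are on chromosome 2. Pcsk1 spans chr13:75089826-75134861 (plus), Cpe chr8:64592542-64693054 (minus), Vgf chr5:137026392-137033351 (plus) and Pcsk1n chrX:7919822-7924410 (plus). Antisense genes overlap Pcsk2 (Pcsk2os1 and Pcsk2os2), Pcsk1n (Eras) and Resp18 (Gm28902), and B230216N24Rik overlaps Pam on the same strand. The sources used here do not say whether the counting used strand, so reads from these overlaps cannot be told apart.

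The study asked how short exposure to an obesogenic diet changes the cells of the arcuate nucleus. Male C57BL/6JRj mice, 5 to 6 weeks old, were fed from weaning with standard chow (SC) for 15 days, with chow for 10 days and then the HFHS diet for 5 days, or with the HFHS diet for 15 days. Arcuate micropunches from 6 mice of a diet were pooled, dissociated with collagenase/dispase followed by papain, and made into 1 droplet library with a 10x Genomics kit that captures the 3′ ends of transcripts. There were thus 3 libraries, 1 per diet, and no replicate of any diet; only fold sizes and counting intervals can be given between diets, with no test.

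The libraries held 43193012 to 59315940 UMIs on 6204 to 7823 barcodes, of which 4907 SC, 4107 5-day HFHS and 5259 15-day HFHS cells were kept. Clustering gave 10 marker-defined classes with at least 100 cells in every library, the 10 members having been left out of the genes that set the clusters. The neuron-like class held 376, 301 and 416 cells in the SC, 5-day and 15-day libraries, with median depths of 5690.5, 5538 and 4626 UMIs. The 16 neuron markers also named its clusters, so their excess here follows in part from that naming. All 16 were above their level in the other cells in each library, by a median of 26.7-, 28.8- and 18.7-fold. Markers of other classes were present at low level in it: the 10 microglia markers summed to 212, 258 and 179 counts per 1e6 UMIs (CPM) and the 11 oligodendrocyte markers to 2549, 1775 and 958 CPM, with Klk6 at 0 in the 5-day library, while the 4 pituitary hormone genes Gh, Prl, Lhb and Fshb were at 0 throughout. A few neuron-like barcodes held over 50000 UMIs, 13, 23 and 2 of them, and carried 24.0%, 30.5% and 3.83% of the class's UMIs. Libraries also shared cell barcodes, 13 between SC and 5-day, 72 between SC and 15-day and 85 between 5-day and 15-day. Counted per library, 8 SC, 6 5-day and 7 15-day neuron-like cells bore a barcode found in another library. Where the number of members called changes without the deep cells or the shared barcodes, the number is given beside the result or in the closing section.

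Expression split the 10 genes over the 10 classes compared. Pcsk1, Scg2, Vgf and Resp18 stood far higher in neuron-like cells than in the other compared classes, as Chgb did by less. Pars tuberalis-like cells of the 15-day library, too few to be compared, held more Scg2, Chgb and Resp18 than neuron-like cells, as the closing section describes. Cpe, Pcsk2 and Pam were highest in glial or ventricular cells, and Pcsk1n and Scg5 were shared between neurons and oligodendrocyte precursor (OPC)-like cells. Over all kept cells, neuron-like cells were above the others for 9 of the 10 genes in each library, and the median log2 ratio of the 10 was 2.27 in SC, 2.84 in the 5-day and 2.11 in the 15-day library. Across all genes measured the median was 0.24, 0.18 and 0.22, and 9.66%, 5.88% and 8.94% of genes lay at or above the members' median. These ratios rest on 1 pool per diet and carry counting error only; the 95% interval of the members' median was 2.09 to 2.45, 2.65 to 3.03 and 2.04 to 2.17.

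**Figure D1:**
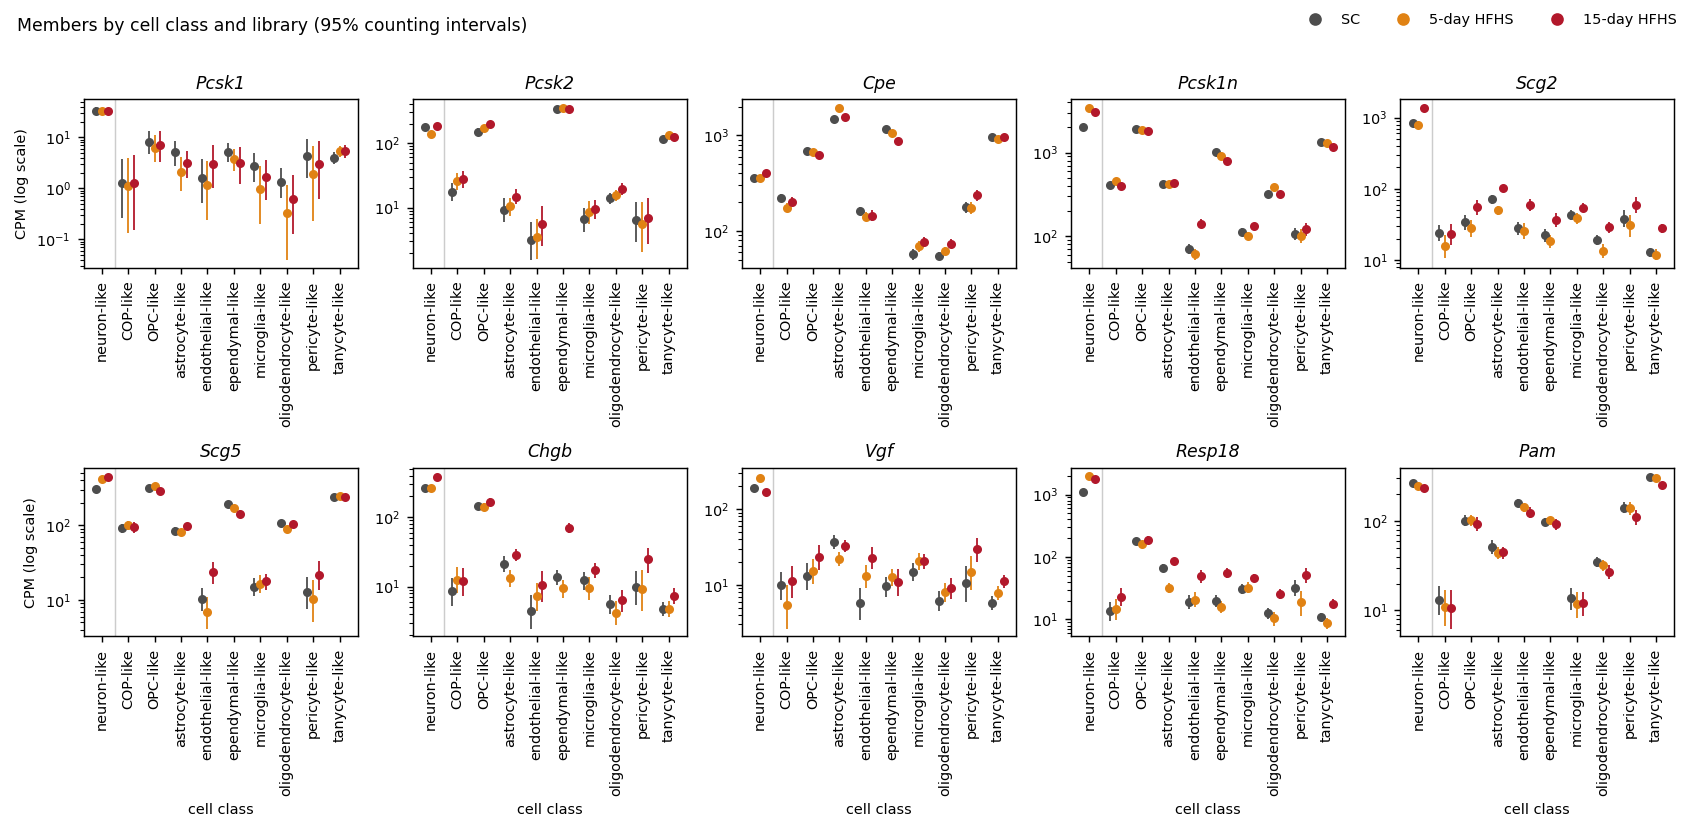
Level of each of the 10 genes in counts per 1e6 UMIs (CPM, log scale) in 10 cell classes; points are the SC, 5-day HFHS and 15-day HFHS libraries and bars are exact 95% Poisson intervals for counting error. Scg2, Vgf and Resp18 stand apart in neuron-like cells, Pcsk2 is highest in ependymal-like cells and Cpe in astrocyte-like cells, in each library.

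The 2 convertases had unlike distributions. Pcsk1 reached 33.4, 32.9 and 32.2 CPM in neuron-like cells of the SC, 5-day and 15-day libraries, against 3.59, 2.93 and 3.81 CPM in all other cells. OPC-like cells came second in each library, at 8.12, 6.28 and 7.09 CPM, and the neuron interval lay above theirs each time. With every cell thinned to 2000 UMIs, Pcsk1 was seen in 5.36%, 4.02% and 5.28% of neuron-like cells, against 0.456%, 0.280% and 0.901% of microglia-like cells, which should lack it; before thinning the shares were 20.5%, 22.3% and 17.3% of neuron-like and 1.73%, 0.587% and 0.943% of microglia-like cells. Thinning left out 96, 102 and 132 neuron-like and 139, 154 and 81 microglia-like cells that were shallower; the microglia-like medians were 5383.5, 4917 and 4797 UMIs before it.

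Pcsk2 was highest outside neurons. Ependymal-like cells, the ciliated lining of the third ventricle, held 340, 343 and 333 CPM, against 177, 136 and 183 CPM in neuron-like cells. OPC-like cells, at 150, 171 and 194 CPM, overlapped neuron-like cells within the counting intervals in SC and at 15 days and were above them at 5 days. Tanycyte-like cells, the elongated glia of the ventricle floor, held 117, 132 and 126 CPM. In endothelial-like cells Pcsk2 was at 3.21, 3.46 and 5.52 CPM, the lowest of the 10 classes.

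Cpe, the carboxypeptidase, was the only member lower in neuron-like cells than in all other cells together. Astrocyte-like cells held 1493, 1932 and 1544 CPM, ependymal-like cells 1174, 1067 and 873 CPM and tanycyte-like cells 965, 924 and 961 CPM. Neuron-like cells came after astrocyte-, ependymal-, tanycyte- and OPC-like cells in each library, at 354, 358 and 401 CPM, and their log2 ratio to all other cells was −0.84, −0.93 and −0.62. Microglia-like cells held 56.9, 69.0 and 77.1 CPM.

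Pam, the amidating enzyme, was led by tanycyte-like cells at 311, 303 and 252 CPM, next to 267, 245 and 236 CPM in neuron-like cells; in the 15-day library the intervals of these classes overlapped. Endothelial-like cells held 160, 142 and 123 CPM and pericyte-like cells 141, 138 and 110 CPM. The lowest level was 13.2, 10.96 and 10.7 CPM in committed oligodendrocyte precursor (COP)-like cells. Vascular leptomeningeal-like cells, too few to be among the 10 classes, are described in the closing section.

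Pcsk1n was high in neurons and in several glial classes. Neuron-like cells held 2019, 3442 and 3086 CPM and OPC-like cells 1895, 1869 and 1799 CPM, so the gap between these classes in SC was small, though their intervals did not overlap. Tanycyte-like cells held 1335, 1300 and 1160 CPM and endothelial-like cells 70.8, 61.2 and 142 CPM. At 2000 UMIs per cell Pcsk1n was detected in 98.1%, 97.0% and 97.3% of OPC-like cells and in 89.4%, 87.0% and 89.2% of tanycyte-like cells, next to 81.8%, 82.4% and 90.8% of neuron-like cells. The share in microglia-like cells was 19.1%, 19.0% and 23.6%, so the shares in the other 3 classes were above background. Before thinning, Pcsk1n was seen in 100%, 100% and 99.5% of OPC-like and in 45.5%, 42.5% and 46.9% of microglia-like cells; OPC-like cells had median depths of 7679, 9282.5 and 5556 UMIs.

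Scg5 was shared between classes in the same way. It reached 306, 413 and 437 CPM in neuron-like cells, 312, 338 and 286 CPM in OPC-like cells and 235, 243 and 237 CPM in tanycyte-like cells. In SC the intervals of neuron-like and OPC-like cells overlapped. Microglia-like cells held 15.0, 16.5 and 17.7 CPM.

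Among the classes compared, the 3 granins were highest in neuron-like cells. Scg2 was at 839, 798 and 1367 CPM in neuron-like cells, and the next class, astrocyte-like cells, had 71.2, 50.04 and 104 CPM. Chgb was at 265, 262 and 377 CPM, and OPC-like cells held 144, 141 and 169 CPM of it, more than any other non-neuronal class compared. Vgf was at 191, 260 and 166 CPM in neuron-like cells, next to 37.0, 22.0 and 33.0 CPM in astrocyte-like cells.

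Resp18 also stood apart, at 1089, 1952 and 1805 CPM in neuron-like cells, with 183, 164 and 190 CPM in OPC-like cells and 10.9, 8.74 and 17.9 CPM in tanycyte-like cells. In the 15-day library the log2 ratio of neuron-like to other cells was 4.03 for Resp18, 4.09 for Scg2 and 2.23 for Chgb, against 5.26, 4.96 and 4.19 in SC. The other cells of that library include a cluster of 11 pars tuberalis-like cells and 2 further clusters that the SC and 5-day libraries lack. Without those 3 clusters the median over the 10 members was 2.69 in place of 2.11.

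The non-neuronal levels of the convertase, carboxypeptidase and chaperone genes were set beside 12 neuronal reference genes such as Syt1, Elavl4 and Stmn3. Not all 12 were near background outside neurons. In OPC-like cells the highest stood at 70.5% of its neuron level in SC (Stmn3) and at 56.7% and 59.6% in the 5-day and 15-day libraries (Elavl4). In oligodendrocyte-like cells the highest, Tubb3, stood at 45.3%, 39.4% and 42.1%. In tanycyte-like cells the reference genes had a median of 1.22%, 1.96% and 2.30% of their neuron level, and Pcsk2, Cpe, Pcsk1n, Scg5 and Pam each exceeded all 12 of them in each library, as Pcsk1 did in both HFHS libraries. In ependymal-like cells, where the reference median was 2.44%, 1.94% and 2.61%, those same 5 genes exceeded all 12 in each library. In OPC-like cells the reference median was itself 11.7%, 10.7% and 12.0%. There Cpe exceeded all 12 in each library, Pcsk2 in the 2 HFHS libraries, Scg5 in SC and 5-day and Pcsk1n in SC.

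Across the 30 sums of 10 classes by 3 libraries, genes whose log2 level was among those most like the members' mean were Minar2 (Pearson r = 0.974), Mapk8ip2 (0.969), Cbarp (0.964), Peg3 (0.9601), Usp29 (0.957), Ly6h (0.953) and Ahi1 (0.953). Sums of 1 library share its depth and free RNA, and sums of 1 class share its cells, so these values are descriptive. Among the members, Pcsk1n and Scg5 were each other's nearest gene (r = 0.978). Scg2 and Vgf had r = 0.962, Chgb and Resp18 0.939 and Pcsk2 and Pcsk1n 0.903, whereas Cpe and Scg2 had 0.1001. The nearest 2 genes were Cbarp (0.955) and Ttc3 (0.947) for Pcsk1, Ctxn1 (0.966) and Cxadr (0.958) for Pcsk2, Rcn2 (0.973) and Stxbp4 (0.9605) for Cpe, and Hk1 (0.930) and Rbbp7 (0.920) for Pam. For Scg2 they were Tmem130 (0.989) and Sst (0.985), for Chgb Gap43 (0.951) and Calb2 (0.945), for Vgf Dgkk (0.966) and Tmem130 (0.965), and for Resp18 Snap25 (0.973) and Syt1 (0.9699). After each other, Pcsk1n and Scg5 shared Tceal3 as nearest gene, at 0.958 and 0.967.

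Neuron-like cells fell into 5 clusters with different granule profiles. The largest, cluster 17, held 65.4%, 46.2% and 53.6% of the neuron-like cells of the SC, 5-day and 15-day libraries and had median mitochondrial shares of 14.2%, 11.6% and 12.9% of UMIs. It had low Pcsk1n (1162, 1489 and 1656 CPM) and low Resp18 (450, 571 and 620 CPM) among neurons. Cluster 28, led by Agrp and Npy, held 6, 33 and 32 cells with 7492, 6921 and 5617 CPM of Pcsk1n and 5250.0, 4079 and 4312 CPM of Resp18. Cluster 29, led by Avp, Rgs16, Vipr2 and Prok2, held 9, 10 and 34 cells and had the highest Scg2 of the 5, at 3833, 4315 and 7072 CPM. Its Pcsk2 was 430, 687 and 518 CPM and its Vgf 1100.1, 2289 and 699 CPM, also the highest of the 5 in each library. Cluster 19 was a second group with low mitochondrial shares (5.69%, 5.91% and 5.43%); its Resp18 was at 2188, 2418 and 2045 CPM and its Chgb at 555, 511 and 617 CPM. Cluster 26 was shallow, with median depths of 1013, 875 and 861.5 UMIs.

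Neurons were then grouped by 4 genes that name arcuate populations: Agrp, Pomc, Sst and Th. A neuron was called positive with at least 3 UMIs of a gene that also made up at least 3 per 10000 of its UMIs. The groups held 7, 31 and 25 Agrp-positive, 24, 11 and 23 Pomc-positive, 30, 12 and 27 Sst-positive and 5, 5 and 7 Th-positive neurons in the SC, 5-day and 15-day libraries, against 307, 238 and 325 positive for none; 3, 4 and 9 neurons were positive for several and stood apart. The Agrp- and Th-positive groups bore other known markers. Npy was at 16161, 8085 and 9807 CPM in Agrp-positive neurons. In Th-positive neurons the dopamine transporter gene Slc6a3 was at 228, 438 and 238 CPM while Slc17a6, a marker of glutamatergic neurons, was at 0. No such marker is given for the Sst-positive group. In Pomc-positive neurons no precursor gene but Pomc was called higher in the test below. At the stricter threshold given below, their Cartpt was at 529, 15672 and 739 CPM, against 312, 373 and 403 CPM in neurons positive for none. There 1 cell per library held 65.9%, 53.0% and 42.0% of the group's Cartpt UMIs. The Agrp, Sst and Th calls were rare elsewhere, at no more than 0.351% of any other class. For Pomc the share was 5.49% of neuron-like cells and 4.65% of endothelial-like cells, at median depths of 5350 and 5741.5 UMIs, and 0% to 1.14% in the other 8 classes. Results at a stricter threshold of 10 UMIs and 10 per 10000 are given beside those for Pomc.

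**Figure D2:**
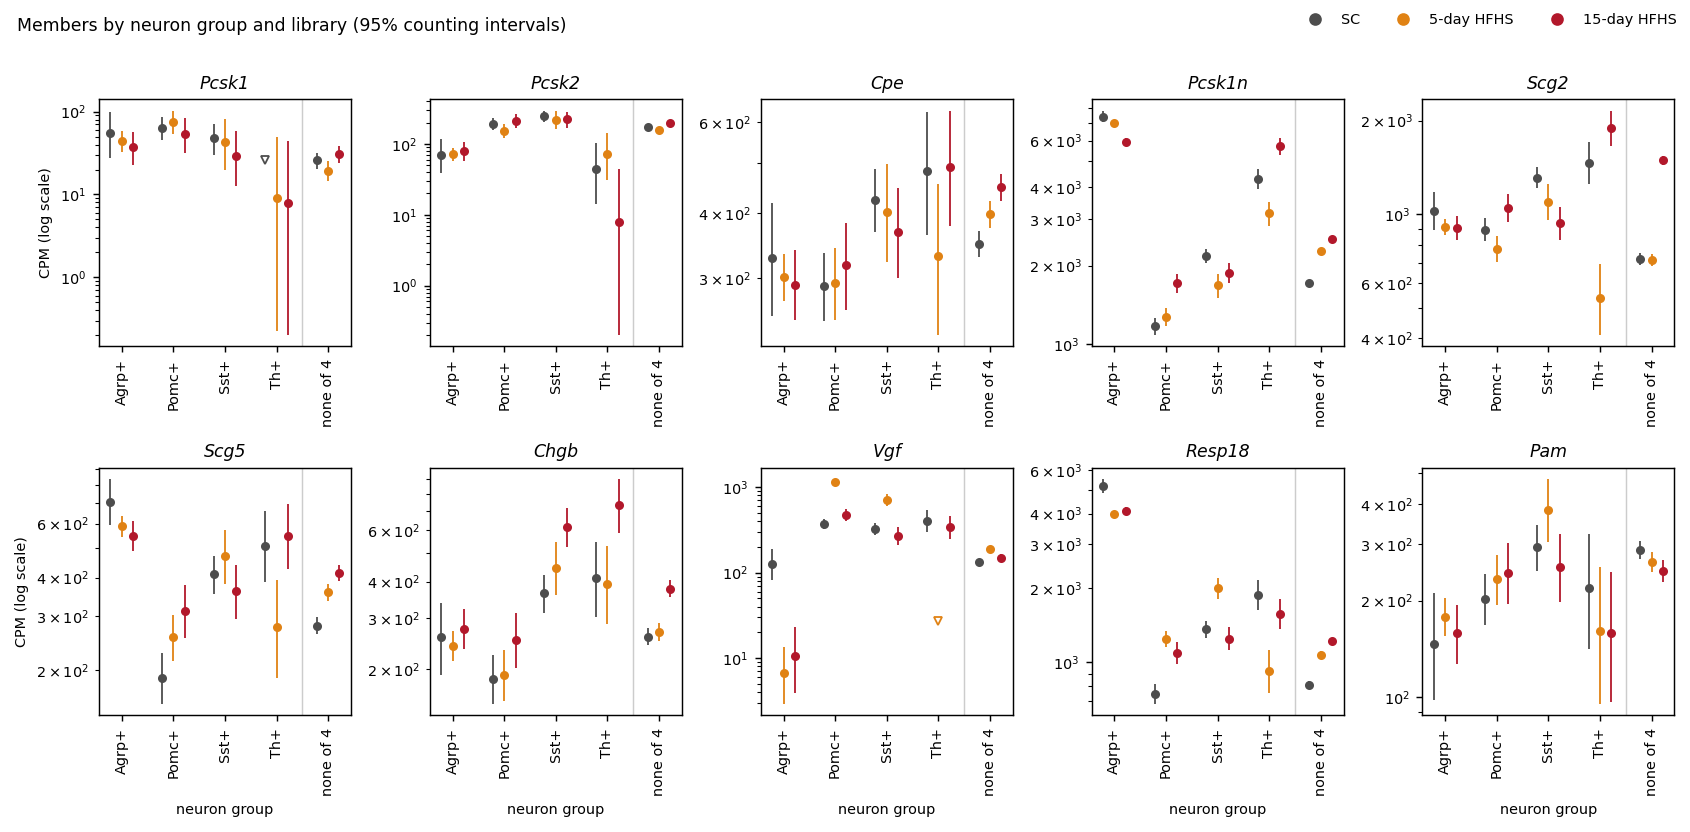
Level of each of the 10 genes (CPM, log scale, a scale of its own per panel) in Agrp-, Pomc-, Sst- and Th-positive neurons and, right of the line, in neurons positive for none of the 4; points are the 3 libraries, bars are exact 95% Poisson intervals, and open triangles mark, at the level of 3 counts, groups with no UMI. Pcsk1n and Resp18 are highest in Agrp-positive neurons in each library, whose Vgf is the lowest but for the Th-positive neurons of the 5-day library with no UMI.

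Summed counts per library and group were compared with edgeR's quasi-likelihood test, library kept as a block and p-values adjusted by Benjamini-Hochberg over 9233 genes. The 3 libraries differ in diet, so the spread these p-values measure is that between 3 pools under different diets, and the 4 tests against the neurons positive for none share those neurons. Groups also differed in depth: median UMIs were 35856, 42320 and 25056 in Agrp-positive neurons, against 5034, 3328 and 3510 in neurons positive for none, and median mitochondrial shares were 5.03%, 5.31% and 5.30%, against 11.7%, 9.54% and 8.32%. Pomc-positive neurons had median depths of 9866.5, 58630 and 8436 UMIs in the SC, 5-day and 15-day libraries. The share of cells in cluster 17 was 14.3%, 0% and 0% of Agrp-positive neurons, against 66.1%, 51.7% and 57.5% of neurons positive for none. With every cell thinned to 2000 UMIs, where 9 members could be tested, Agrp-positive neurons had 3 members higher and 2 lower against neurons positive for none, and 3 higher and 2 lower against Pomc-positive neurons. Of all 1165 genes tested there, 315 were called higher and 368 lower against neurons positive for none. Against Pomc-positive neurons 282 were called higher and 330 lower, so the member counts are near the background. With neurons of at least 3000 UMIs, and without the shallow neuron cluster, the counts of members called were those of all neurons in all 5 comparisons.

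Agrp-positive neurons had more Pcsk1n, Resp18, Scg5 and Pcsk1 and less Pcsk2 and Vgf than neurons positive for none. That is 4 of 10 members higher and 2 lower, in a comparison where 25.6% of all genes were called higher and 26.1% lower, so the counts are near the background and the individual genes carry the description. The median log2 fold change of the members was 0.33, against −0.07 over all genes, and its sign was not stable: it was 0.065 without neurons over 50000 UMIs, −0.33 with cells thinned to 2000 UMIs, −0.28 at 10% mitochondrial UMIs or less and −0.45 without cluster 17.

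Pcsk1n was at 7413, 7030.1 and 5928.5 CPM in Agrp-positive neurons, against 1723, 2270.0 and 2518 CPM in neurons positive for none, a log2 fold change of 2.08 (SE 0.24, adjusted p = 2.25e-08 by edgeR's quasi-likelihood test). Resp18 was at 5175, 3972 and 4096 CPM, against 810.1, 1068 and 1214 CPM, a log2 fold change of 2.52 (SE 0.27, adjusted p = 6.28e-09). For both genes every library of Agrp-positive neurons lay above every library of the others. The difference also showed in single neurons of at least 3000 UMIs: the median Pcsk1n of Agrp-positive neurons was 6877, 6877 and 6237 CPM, against 909, 1200.4 and 1817 CPM in neurons positive for none, whose range reached 11267, 15326 and 11824 CPM and so covered that of the Agrp-positive neurons.

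Scg5 was at 707, 587 and 548 CPM in Agrp-positive neurons, against 279, 359 and 415 CPM in those positive for none, with a log2 fold change of 1.23 (SE 0.22, adjusted p = 1.83e-05 by edgeR). Pcsk1 was at 55.6, 44.1 and 36.9 CPM, against 25.8, 19.4 and 30.8 CPM, also 1.23 on the log2 scale (SE 0.26, adjusted p = 0.000211). Both were higher in all 3 libraries, although in the SC and 15-day libraries the Pcsk1 intervals overlapped.

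Pcsk2 went the other way from Pcsk1. It was at 70.7, 71.2 and 79.0 CPM in Agrp-positive neurons, against 175, 157 and 199 CPM in those positive for none, and fell by 0.80 on the log2 scale (SE 0.21, adjusted p = 0.00161 by edgeR). Vgf was at 126, 6.78 and 10.5 CPM, against 132, 187 and 149 CPM, with a log2 fold change of −2.32 (SE 0.65, adjusted p = 0.00366). The SC value of 126 CPM came mostly from 1 of 7 Agrp-positive neurons; in the 5-day library 6 of 29 Agrp-positive neurons of at least 3000 UMIs had a Vgf UMI. Without the 5-day library Vgf was at −1.16 with an adjusted p of 0.0711 and was no longer called, nor was it by DESeq2 or when each library was clustered alone; its adjusted p reached 0.24 over the 19 alternatives. Cpe (0.04), Scg2 (0.45), Chgb (0.20) and Pam (−0.27) did not pass the test.

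Cluster 17 entered the comparison group far more than the Agrp-positive group, so the fit was repeated without it, a choice made after seeing the data. Pcsk1n then had a log2 fold change of 1.15, Resp18 1.43 and Pcsk1 1.15 in Agrp-positive over other neurons, all still called higher, and Scg5 had 0.31 with an adjusted p of 0.19. Pcsk2 (−0.72) and Vgf (−3.67) were still called lower, joined by Cpe (−0.44), Chgb (−0.83) and Pam (−1.02), which makes 5 lower. Of all 3413 genes tested in that fit, 319 were called higher and 384 lower.

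**Figure D3:**
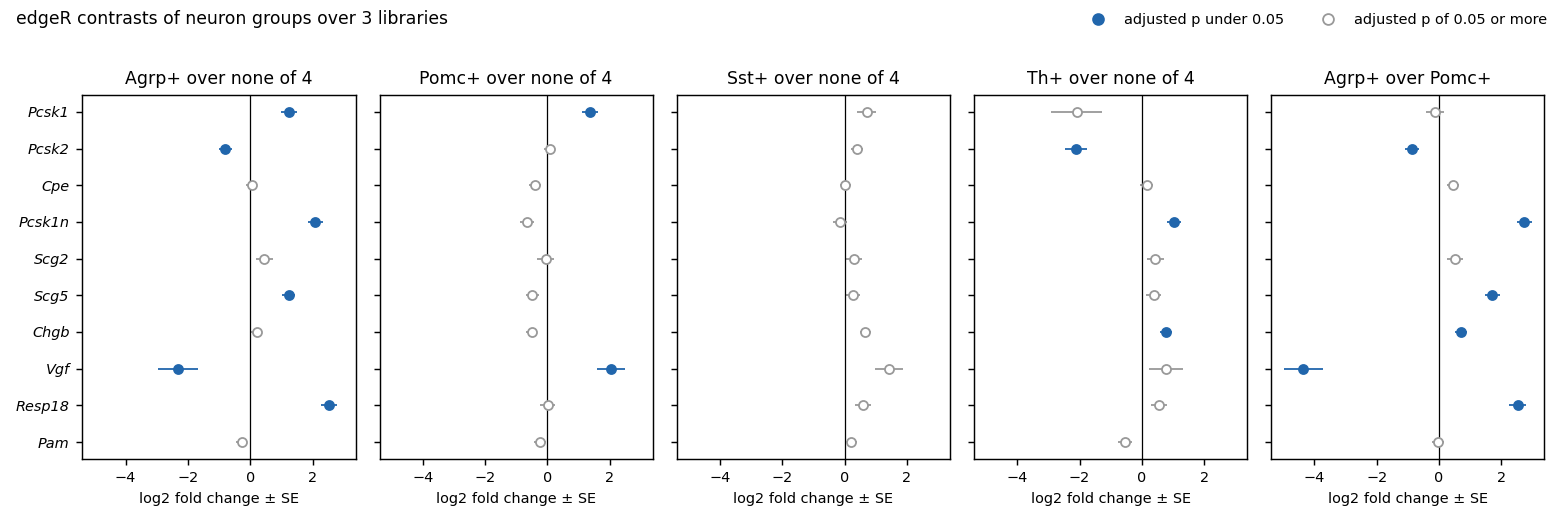
log2 fold change and SE (edgeR, 3 libraries) of each of the 10 genes in 5 comparisons of neuron groups; filled points have an adjusted p under 0.05. Vgf lies right of zero in Pomc-positive neurons at 2.03 and left of it in Agrp-positive neurons at −2.32, and no point is filled for Sst-positive neurons.

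Pomc-positive neurons had more Pcsk1 and Vgf. Against 0.726% of genes called higher and 0.931% lower, 2 of 10 members were higher and none lower. Pcsk1 was at 63.5, 75.3 and 53.0 CPM in Pomc-positive neurons, against 25.8, 19.4 and 30.8 CPM in neurons positive for none (log2 fold change 1.36, SE 0.24, adjusted p = 0.00131 by edgeR). Vgf was at 368, 1134 and 477 CPM, against 132, 187 and 149 CPM (2.03, SE 0.44, adjusted p = 0.00848). Both genes were higher in each library, and only the Pcsk1 intervals of the 15-day library overlapped. The members' median was −0.15, against 0.01 over all genes, and the other 8 members did not pass the test: Pcsk1n (−0.65), Chgb (−0.51), Scg5 (−0.48), Cpe (−0.41), Pam (−0.24), Scg2 (−0.06), Resp18 (0.002) and Pcsk2 (0.07).

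Without the 5-day library Pcsk1 was at 1.03 (adjusted p = 0.322 by edgeR) and Vgf at 1.57 (adjusted p = 0.0655), and neither was called. Vgf was called in 13 of 19 alternatives; besides DESeq2 and the fit without the 5-day library it was lost with no library block (adjusted p = 0.0685 by edgeR), with each library clustered alone (0.245), at 10% mitochondrial UMIs or less (0.0700) and without cluster 17 (2.00, adjusted p = 0.0995), which held 79.2%, 81.8% and 82.6% of Pomc-positive neurons. Outside cluster 17 the 4 Pomc-positive neurons of the 15-day library had 2 Vgf UMIs, 16.6 CPM, against 193 CPM in neurons positive for none. By DESeq2, Pcsk1 had a log2 fold change of 1.37 and an unadjusted p of 9.86e-06 but was given no adjusted p, and Vgf, at 2.15, had an adjusted p of 0.319. In the 5-day library 1 deep Pomc-positive neuron held 2642 Pomc and 339 Vgf UMIs of its 61486; without it Vgf was at 1.57 (adjusted p = 0.0399) and Pcsk1 at 1.13 (adjusted p = 0.0131). Pcsk1 was not called without all neurons over 50000 UMIs, where 1 member was higher. With Pomc-positive neurons at 10 UMIs and 10 per 10000, where 8.32% of genes were called higher and 7.29% lower, 5 members were higher: Vgf (log2 fold change 2.97), Pcsk1 (2.14), Resp18 (1.504), Scg2 (1.01) and Pcsk2 (0.75). These stricter Pomc-positive groups held only 7, 4 and 9 neurons, and 1 cell per library held 33.3%, 69.6% and 48.6% of their Vgf UMIs.

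Sst-positive neurons gave no call at the main threshold, where 0.585% of genes were called higher and 0.455% lower by edgeR; 757 genes had an unadjusted p under 0.05, and DESeq2 called 1 member, Chgb, higher (adjusted p = 0.00156). Chgb was at 365, 445 and 616 CPM in Sst-positive neurons, against 259, 269 and 379 CPM in neurons positive for none (log2 fold change 0.65, adjusted p = 0.0727). Vgf was at 324, 710 and 269 CPM, against 132, 187 and 149 CPM (1.41, adjusted p = 0.169). Pcsk1 (0.71), Resp18 (0.58), Pcsk2 (0.39), Scg2 (0.29), Scg5 (0.26), Pam (0.22), Cpe (0.02) and Pcsk1n (−0.15) did not pass either. At 10 UMIs and 10 per 10000, where 6.47% of genes were called higher and 6.69% lower, 7 members were higher: Vgf (1.77), Chgb (1.36), Resp18 (1.34), Pcsk1 (1.17), Scg2 (0.82), Pcsk2 (0.78) and Scg5 (0.76). These stricter Sst-positive groups held only 17, 4 and 9 neurons, and 1 cell per library held 57.4%, 76.1% and 81.6% of their Vgf UMIs.

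Th-positive neurons, only 5, 5 and 7 cells, had little Pcsk2. It was at 43.8, 71.5 and 7.94 CPM, against 175, 157 and 199 CPM in neurons positive for none, a log2 fold change of −2.12 (SE 0.36, adjusted p = 0.000182 by edgeR). Pcsk1 had 0, 1 and 1 UMIs in them; with 0 UMIs the exact 95% Poisson interval of the SC group reaches 32.3 CPM, next to 25.8 CPM in neurons positive for none, and the test was not passed (adjusted p = 0.0873). Pcsk1n, at 4276, 3166 and 5713 CPM, against 1723, 2270.0 and 2518 CPM, was higher (log2 fold change 1.02, SE 0.23, adjusted p = 0.00470). Chgb was higher by 0.77 (SE 0.19, adjusted p = 0.0105 by edgeR). Vgf (0.78), Resp18 (0.54), Scg2 (0.42), Scg5 (0.37), Cpe (0.15) and Pam (−0.55) did not pass the test. Over all genes 4.68% were called higher and 6.11% lower, against 2 and 1 of the 10 members. Without the 15-day library only Pcsk1n was called higher (0.95, adjusted p = 0.0439), and without cluster 17 or with each library clustered alone none was. The Chgb call held in 11 of 18 alternatives and was also lost without the 5-day library, with thinned cells, without neurons over 50000 UMIs and at 10% mitochondrial UMIs or less; over the 18 its log2 fold change went down to 0.02 and its adjusted p up to 0.981.

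Set directly against Pomc-positive neurons, Agrp-positive neurons had more Pcsk1n (log2 fold change 2.73, SE 0.25, adjusted p = 4.40e-10 by edgeR), Resp18 (2.52, SE 0.27, adjusted p = 7.49e-09), Scg5 (1.71, SE 0.23, adjusted p = 2.48e-07) and Chgb (0.71, SE 0.19, adjusted p = 0.00259). They had less Vgf (−4.35, SE 0.64, adjusted p = 1.03e-06) and Pcsk2 (−0.87, SE 0.22, adjusted p = 0.00150). The shares of all genes called were 26.7% higher and 29% lower. Pcsk1, which cuts both the Agrp and the Pomc precursor, had a log2 fold change of −0.13 (SE 0.28), Cpe 0.45 (SE 0.20, adjusted p = 0.0511 by edgeR), Scg2 0.51 (SE 0.27, adjusted p = 0.103) and Pam −0.04 (SE 0.20), none of which passed the test.

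At the stricter threshold Agrp-positive over Pomc-positive neurons had Pcsk1n (1.63) and Resp18 (1.04) called higher and Vgf (−5.82), Pcsk2 (−1.496) and Pcsk1 (−1.10) called lower; 8.97% of genes were called higher and 8.12% lower. Chgb changed sign there, to −0.42. Without cluster 17 Pcsk1n (1.21) was still called higher, while Resp18 was at 0.42 (adjusted p = 0.231 by edgeR) and Scg5 at 0.21 (adjusted p = 0.570) and neither was called; Vgf (−5.67), Pcsk2 (−1.99), Pcsk1 (−1.40), Chgb (−0.71) and Cpe (−0.63) were called lower. Of all 3413 genes tested without cluster 17, 130 were called higher and 175 lower. Chgb was called higher in 11 of 19 alternatives: it was lost without the 5-day library (0.68, adjusted p = 0.0695), without shared barcodes (0.23, adjusted p = 0.428) and without neurons over 50000 UMIs (0.29, adjusted p = 0.372), among others, and 3 members were then higher. Pcsk1n, Pcsk2 and Vgf were called in the same direction under all 19 alternatives tried for this comparison.

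The other genes of the secretory pathway give the setting. Of 7 further convertases, 3 could be tested in Agrp-positive over none, and Furin, the ubiquitous convertase of the Golgi, was called lower (log2 fold change −2.00). Of 16 further trimming and end-modifying enzymes 8 were tested; Ctsl (1.59) and Qpct (1.06), which forms N-terminal pyroglutamate, were higher and Cpd (−0.95), a carboxypeptidase of the Golgi, was lower. Of the 4 other granins and granule proteins Nucb2 (0.54) was higher. Among 27 tested genes of the dense-core vesicle machinery 5 were higher and 6 lower, including the vesicle GTPase Rab3a (1.21) and the priming factors Unc13a (−1.90) and Cadps2 (−0.94). Of the 12 neuronal reference genes 6 were higher and 4 lower.

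In Pomc-positive over none, none of the tested convertases, trimming enzymes and other granins was called, and Slc18a2 (0.98) and Unc13a (0.77) of the vesicle machinery were higher. In Sst-positive over none no gene of those 4 lists was called. In Th-positive over none Scg3 (1.253) and Nucb2 (1.18) were higher, with Slc18a2 (3.28), Rab3b (2.50) and Rab27b (1.41) higher and Unc13a (−1.10) lower in the vesicle machinery. Of 16 tested precursor genes, 11, 7, 6 and 10 were called lower in the Agrp, Pomc, Sst and Th comparisons, and 2, 1, 1 and 1 higher; Agrp, Pomc and Sst, which set their groups, are among those higher. In Agrp-positive over Pomc-positive neurons, Furin (−1.68) and Mbtps1 (−0.81) were lower among convertases, Ctsl (1.90) and Qpct (1.36) higher and Cpd (−1.54) lower among trimming enzymes, Chga (1.03) and Nucb2 (0.72) higher among granins, and 5 higher with 6 lower in the vesicle machinery, among them Rab3a (1.88), Rab2a (1.45) and Unc13a (−2.66).

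Within single neurons the members did not vary together as 1 block. Levels were taken as the natural log of 1 plus the UMIs per 10000, over the 247, 183 and 252 neuron-like cells of at least 3000 UMIs. Their correlation between Pcsk1n and Resp18 was 0.67, 0.77 and 0.73. That between Scg5 and Resp18 was 0.62, 0.73 and 0.62, and that between Pcsk1n and Scg5 0.58, 0.73 and 0.60. Vgf and Pcsk1n had −0.13, −0.18 and −0.17. Cells of 1 library share its pool and differ in depth, so these values are descriptive. The Vgf of Pomc-positive neurons ranged from 0 to 2500 CPM in SC, 161 to 5513 CPM in the 5-day and 0 to 3473 CPM in the 15-day library, with medians of 320, 464 and 171 CPM.

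**Figure D4:**
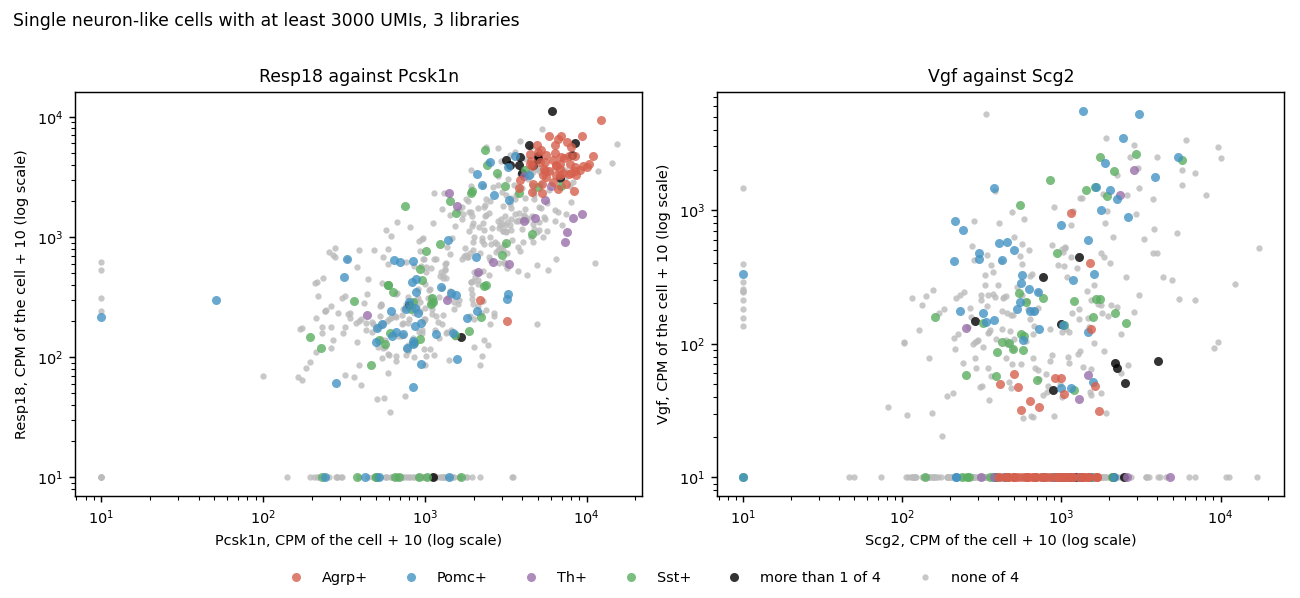
Each point is 1 of the 682 neuron-like cells with at least 3000 UMIs in the 3 libraries, coloured by peptide group; axes are the cell's CPM plus 10 on log scales, Resp18 against Pcsk1n on the left and Vgf against Scg2 on the right. Most Agrp-positive neurons lie at the upper right on the left and on the floor of Vgf on the right, where 10 means no UMI.

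Between diets there is 1 library each, so a difference was named only by size: 100 or more UMIs over the 2 libraries, a level of 30 CPM or more in at least 1 of them, a ratio that reached 1.5 and a 95% counting interval that kept more than 25% away from equality. In neuron-like cells, Pcsk1n and Resp18 were above this size in both HFHS libraries and Scg2 in the 15-day library. That is 2 of 10 members higher at 5 days, where 3.54% of all genes were higher and 3.51% lower, and 3 of 10 at 15 days, where 4.8% were higher and 8.62% lower; no member was lower. Both comparisons share the SC library.

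At 5 days Pcsk1n was at 3442 CPM in HFHS neuron-like cells, against 2019 CPM in SC, a log2 ratio of 0.77 (95% counting interval 0.73 to 0.81). Resp18 was at 1952 CPM, against 1089 CPM in SC, a log2 ratio of 0.84 (0.79 to 0.89). Scg5 (0.43) and Vgf (0.45) were higher by less than the size named, Pcsk2 was at −0.38, and Pcsk1 (−0.02), Cpe (0.02), Scg2 (−0.07), Chgb (−0.02) and Pam (−0.13) lay closer to 0. The median of the 10 was 0.00023, against −0.13 over all genes.

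At 15 days Pcsk1n was at 3086 CPM in HFHS neuron-like cells, against 2019 CPM in SC (0.61, 0.57 to 0.65), and Resp18 at 1805 CPM, against 1089 CPM (0.73, 0.68 to 0.78). Scg2 was at 1367 CPM, against 839 CPM (0.70, 0.64 to 0.76). Scg5 (0.51) and Chgb (0.51) fell short of the size named, Cpe was at 0.18, and Pcsk1 (−0.05), Pcsk2 (0.05), Vgf (−0.20) and Pam (−0.18) lay near 0 or below. The median was 0.34, against −0.14 over all genes.

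**Figure D5:**
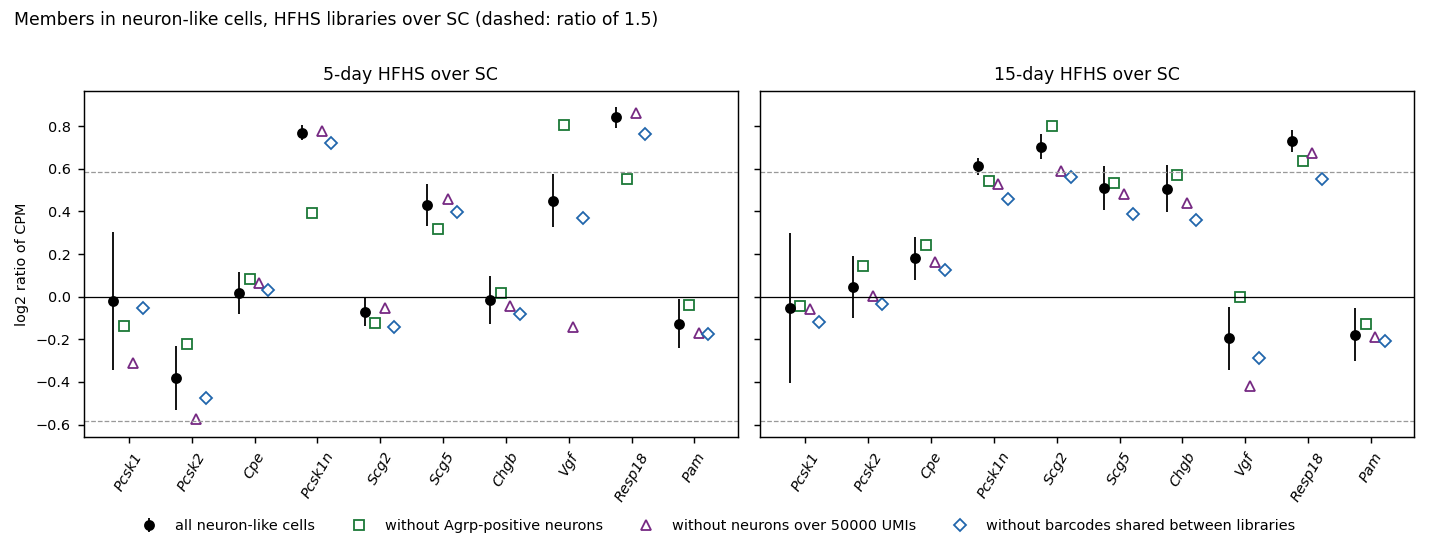
log2 ratio of CPM in neuron-like cells, 5-day HFHS over SC on the left and 15-day HFHS over SC on the right; black points with 95% counting intervals use all neuron-like cells, open symbols leave out the cells named, and dashed lines mark a ratio of 1.5. Without Agrp-positive neurons the 5-day ratios of Pcsk1n and Resp18 fall below the line, and without shared barcodes the 15-day ratios do.

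The mix of neurons differed between the libraries beside these results. Agrp-positive neurons were 10.3% of neuron-like cells at 5 days and 6.01% at 15 days, against 1.86% in SC, and carried 23.5% and 14.7% of the class's UMIs, against 4.23% in SC. Without them the 5-day log2 ratio was 0.39 for Pcsk1n and 0.55 for Resp18, both under the size named, and 0.81 for Vgf, which passed it; at 15 days Pcsk1n was at 0.54, Resp18 at 0.64 and Scg2 at 0.80. With the mix of the Agrp, Pomc, Sst, Th and none groups held at that of SC, Pcsk1n was at 0.28 and Resp18 at 0.35 at 5 days. At 15 days they were at 0.43 and 0.42. Vgf (0.78) at 5 days and Scg2 (0.83) at 15 days were past the size. That step did not fix the mix inside the none group. The none group held all 53 cells of the Scg2-rich cluster 29, which was 2.39%, 3.32% and 8.17% of neuron-like cells in the SC, 5-day and 15-day libraries. Its part in the Scg2 value was not tested. Of the 1306 Vgf UMIs of the 5-day neuron-like cells, 1 Pomc-positive neuron held 339. The part of that cell in these 5-day Vgf ratios was not tested. Whether the diet, the punch or the dissociation set that mix cannot be told apart with 1 pool per diet.

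Within Agrp-positive neurons none of the 7 members with enough UMIs passed the size at 5 or at 15 days, where 0.879% and 2.05% of genes were higher and 0.544% and 1.98% lower. In Pomc-positive neurons Vgf (1.63) and Resp18 (0.74) were higher at 5 days, where 3.91% of genes were higher, and Scg5 (0.72) at 15 days, where 10% were. Single cells carried much of these values: 1 of the 11 Pomc-positive neurons of the 5-day library held 339 of its 603 Vgf UMIs, and without that cell Vgf was at 562 CPM in the 5-day library, against 368 CPM in SC (0.61). Without the 1 cell with 327 of 661 Resp18 UMIs, Resp18 was at 722 CPM, against 747 CPM in SC (−0.05), and without the 1 with 23 of 106 Scg5 UMIs, Scg5 at 15 days was at 0.53, neither past the size. In Sst-positive neurons Vgf (1.13) was higher at 5 days and Chgb (0.75) at 15 days, where 2.68% and 2.97% of genes were; 1 of 12 cells held 102 of the 150 Vgf UMIs, and without it Vgf was at −0.22, while Chgb was at 0.41 without the cell richest in it. In Th-positive neurons Scg2 (−1.45) and Resp18 (−1.03) were lower at 5 days, where 16.5% of genes were lower; without the SC cell richest in each gene Scg2 was at −1.06, still past the size, and Resp18 at −0.49. In neurons positive for none no member passed at 5 days, where 1.46% of genes were higher, and Scg2 (1.05) was higher at 15 days, where 3.84% were.

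By cluster, Scg2 in the large cluster 17 was higher at 15 days (0.60; 2.76% of genes higher there). In cluster 19 Vgf was at 610 CPM at 5 days and 119 CPM at 15 days, against 277 CPM in SC, log2 ratios of 1.14 and −1.22, where 0.655% of genes were higher at 5 days and 0.874% lower at 15 days. Outside cluster 17, 1 cell held 83.3% of the 407 Vgf UMIs of the 5-day Pomc-positive neurons. No ratio by cluster was computed without the cell richest in the gene. In cluster 29 Vgf was higher at 5 days (1.06; 7.48% of genes higher) and Pcsk1n (1.07) and Scg2 (0.88) at 15 days (8.4%).

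The diet values in neurons also moved when other cells were left out. The neuron-like cells over 50000 UMIs summed to 5336, 836 and 4516 CPM of oligodendrocyte markers in the SC, 5-day and 15-day libraries, against 1670, 2188 and 817 CPM in the shallower ones, and to 43.7, 634 and 2234 CPM of microglia markers, against 265, 92.9 and 97.2 CPM. Endothelial markers summed to 700, 1674 and 2564 CPM in the cells over 50000 UMIs, against 389, 1010 and 127 CPM in the shallower ones. Without all neurons over 50000 UMIs 2 members were higher at 5 days and 2 at 15 days. Without the cells whose barcodes recur between libraries, no member passed at 15 days (Pcsk1n 0.46, Scg2 0.56, Resp18 0.55), and Pcsk1n (0.72) and Resp18 (0.76) still did at 5 days. Without cluster 17 no member was higher in either, and Vgf (−0.96) was lower at 15 days.

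Outside neurons few members moved, and in no class did all 10 have enough UMIs and level to be named. In astrocyte-like cells Resp18 was at 32.0 CPM at 5 days, against 67.7 CPM in SC (−1.08), where 0.929% of genes were lower. In endothelial-like cells at 15 days Resp18 (1.35), Scg2 (1.08) and Pcsk1n (1.01) were higher, where 1.44% of genes were. In ependymal-like cells at 15 days Chgb was at 70.8 CPM, against 13.6 CPM in SC (2.38), and Resp18 was higher as well (1.47), where 0.956% of genes were. These are genes that neurons hold at a far higher level. The 11 pars tuberalis-like cells, seen only in the 15-day library, held 6461 CPM of Chgb, 2620.1 CPM of Resp18 and 2552 CPM of Scg2. The part of free RNA in these classes, from either source, was not tested. In COP-, OPC-, microglia-, oligodendrocyte-, pericyte- and tanycyte-like cells no member passed the size at either time, nor did any in endothelial- or ependymal-like cells at 5 days or in astrocyte-like cells at 15 days. Members with enough UMIs and level at 5 and 15 days numbered 3 and 3 in COP-, 8 and 8 in OPC- and 4 and 4 in microglia-like cells. They numbered 4 and 4 in oligodendrocyte-, 3 and 4 in pericyte- and 5 and 5 in tanycyte-like cells. In endothelial-, ependymal- and astrocyte-like cells they numbered 3 and 5, 5 and 8, and 7 and 7. The shares of all genes past the size were small where no member passed it. At 5 days they were, higher and lower, 0.862% and 0.749% in COP-, 0.0908% and 0.121% in OPC-, 0.268% and 0.33% in microglia-, 0.241% and 0.504% in oligodendrocyte-, 0.285% and 0.46% in pericyte- and 0.111% and 0.0737% in tanycyte-like cells. In endothelial- and ependymal-like cells they were 0.206% and 0.188%, and 0.0869% and 0.104%. At 15 days they were 1.23% and 1.77% in COP-, 0.678% and 0.872% in OPC-, 0.812% and 0.978% in microglia-, 1.02% and 0.651% in oligodendrocyte-, 1.14% and 0.851% in pericyte- and 0.715% and 0.641% in tanycyte-like cells. In astrocyte-like cells they were 0.603% and 0.218%.

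Of the other lists in neuron-like cells, none of the 2 measured further convertases and none of the 4 other granins passed the size at either time. Of 5 trimming enzymes Cpd was lower at 15 days. Of 26 vesicle machinery genes Syt7 was lower at both times and Rab3b higher at 15 days. Of 16 precursor genes 5 were higher and 3 lower at 5 days, and 5 higher and 1 lower at 15 days, Npy and Hcrt being among those named at both times. Of the 12 neuronal reference genes only Stmn3 (0.59) passed the size, at 15 days.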

How the data were processed

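For each of the 3 libraries the authors deposited a matrix of raw UMI counts for genes by barcodes; the file headers type them as integers and every value was whole. Cell Ranger, SAMtools and Scanpy 1.4.4 with genome build GRCm38 are named in the submitters' processing notes, and the matrix headers give software 3.1.0; the sources used here do not name the gene annotation behind the counts. The 3 libraries held 59315940 (SC), 52735770 (5-day HFHS) and 43193012 (15-day HFHS) UMIs.

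Barcodes with under 500 genes or over 20% mitochondrial UMIs were left out with Scanpy 1.11.5 (Python 3.11.15). The top Scrublet scores, at a rate of 0.8% per 1000 barcodes, were removed as doublets (209, 145 and 242 barcodes), since its automatic threshold marked 0%, 1.27% and 1.53%. Cells were clustered together (Leiden, 3000 variable genes without the members and the other granule genes, 40 components, resolution 1.0), and a cluster was named from at least 3 markers among its top 50 genes. Of 33 clusters 29 were named. Levels are counts per 1e6 summed UMIs (CPM) with exact Poisson intervals, which cover counting error only; shares have Clopper-Pearson intervals. Diet ratios have exact conditional binomial intervals and no test.

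Neuron groups were compared with edgeR 4.0.16 in R 4.3.3 (quasi-likelihood test, TMM, filterByExpr, Benjamini-Hochberg adjustment), with the library as a block because the groups of a library come from the same pooled mice. p-values measure only the spread between these 3 pools. In simulated data that test called 89.1% of 92 genes changed 4-fold, 13.0% of 77 genes changed 2-fold and 0.033% of 9097 unchanged genes for Agrp over none, and the size rule took in 95.7% (5-day) and 97.8% (15-day) of genes changed 2-fold.

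All 10 members are named in each comparison of neuron groups and in the diet comparisons of neuron-like cells; of each other list, up to 4 genes past the threshold with the largest absolute log2 ratio; and the 8 genes most like the members' mean over class sums of genes at 30 CPM or more, with 2 for each member; 1 of those 8 is not reported here. The members and the gene lists were chosen with earlier results of these data known. Promoter windows came from RefSeq. Alternatives covered normalization, filters, thresholds, thinning, DESeq2 1.42.0, each library left out and cells left out; those that leave out shared barcodes, the shallow or the largest neuron cluster, the clusters of the 15-day library, Agrp-positive neurons, neurons over 50000 UMIs, the top Pomc cell or the cell with most UMIs of a gene were chosen after seeing the data.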

Additional observations from a re-analysis of the deposited data

Results flagged for a closer look

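Resp18 differed in direction between cell types at 5 days of HFHS diet: its log2 ratio over SC was 0.84 in neuron-like cells and −1.08 in astrocyte-like cells, and 0.74 in Pomc-positive and −1.03 in Th-positive neurons. With 1 library per diet these differences were not tested, and the Th-positive groups hold 5 cells each. Without the cell with most Resp18 UMIs, the ratio was −0.05 in Pomc-positive and −0.49 in Th-positive neurons.

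Signal also appeared in cell groups outside the comparisons of the report. A cluster of 11 pars tuberalis-like cells, seen only in the 15-day library, held 6461 CPM of Chgb, 2620.1 CPM of Resp18, 2552 CPM of Scg2 and 1258 CPM of Scg5. An unnamed cluster of 44 cells, also only in that library, held 4495 CPM of Pcsk1n. Vascular leptomeningeal-like cells (13, 18 and 63 cells in the SC, 5-day and 15-day libraries) held 1187, 1286 and 699 CPM of Pam, above every class compared.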

How the results depend on the processing

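The median log2 ratio of the 10 members in neuron-like over other cells stayed above 0 in each library under every alternative run. In SC it was 1.97 with TMM, 2.01 with median-of-ratios scaling, 2.66 at 10% mitochondrial UMIs or less and 2.03 thinned to 2000 UMIs. It was 1.60 with every cell given equal weight, 2.46 after removing 10% free RNA and 2.91 without the largest neuron cluster. At 5 days it was 3.17 at 10% mitochondrial UMIs or less, 2.39 thinned, 2.29 with equal weights, 3.09 after removing free RNA and 3.34 without the largest neuron cluster. At 15 days it was 1.91 with TMM, 1.93 with median-of-ratios, 2.48 at 10% mitochondrial UMIs or less, 2.04 clustered alone, 1.92 with equal weights, 2.33 without the top cell of each gene, 2.27 after removing free RNA, 2.47 without the largest neuron cluster and 2.69 without the clusters of that library alone.

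The median diet ratio in neuron-like cells at 15 days was 0.53 with TMM, 0.54 with median-of-ratios, 0.19 at 10% mitochondrial UMIs or less and 0.032 without the largest neuron cluster. Members higher at 15 days numbered 5 with TMM and 5 with median-of-ratios; 1 with the mix of SC and 1 at 10% mitochondrial UMIs or less, where 1 (Vgf) was lower; 0 without shared barcodes; and 0 without the largest neuron cluster, where 1 was lower. With each library clustered alone 1 was lower at 15 days. At 5 days 1 was higher with the mix of SC, 1 without Agrp-positive neurons, 1 at 10% mitochondrial UMIs or less and 0 without the largest neuron cluster. Without the cell with most UMIs of the gene, the 5-day ratio was −0.049 for Resp18 in Pomc-positive and −0.22 for Vgf in Sst-positive neurons, both reversed. No paired analysis was possible because each diet has 1 library.

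In the edgeR comparisons of neuron groups the library block stands for the shared pool. With no replicate block Pomc over none had 1 member higher (2 with the block) and no other count moved. Leaving out each library in turn gave, higher and lower, 4 to 5 and 1 to 2 in Agrp over none, 0 to 2 and 0 to 0 in Pomc over none, 0 to 0 and 0 to 0 in Sst over none, 1 to 2 and 1 to 1 in Th over none, and 3 to 4 and 2 to 2 in Agrp over Pomc. Lower members in Agrp over none numbered 1 by DESeq2, 1 clustered alone and 5 without the largest neuron cluster. Higher members in Pomc over none numbered 0 by DESeq2 (with no adjusted p for Pcsk1), 5 at 10 UMIs, 1 thinned, 1 clustered alone and 1 without neurons over 50000 UMIs, and lower members 1 by DESeq2 and 4 at 2 UMIs. Higher members in Sst over none numbered 7 at 10 UMIs and 1 each by DESeq2, with no filter on low counts, thinned and without the largest neuron cluster. Higher members in Th over none numbered 1 each when thinned, without neurons over 50000 UMIs and at 10% mitochondrial UMIs or less, and 0 clustered alone and without the largest neuron cluster; lower members numbered 0 thinned and 2 without the largest neuron cluster. Agrp over Pomc had 2 higher at 10 UMIs, and 1 higher with 5 lower without the largest neuron cluster. Chgb in Agrp over Pomc reversed, to −0.42 at 10 UMIs, −0.71 without the largest neuron cluster and −0.31 at 10% mitochondrial UMIs or less. The cause was not tested. Groups of 5 to 7 Th-positive neurons, and diets of 1 pool each, limit what these counts can show.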
